A study of Homo sapiens with 3 samples.

Results

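The 39 imprinted genes described here were taken by name, as a list of human genes reported to be expressed from one parental copy, for some of them only in certain tissues or transcripts, and every gene on it was found among the 59098 annotated genes of chromosomes 1 to 22 and X. Of these, 37 were found by symbol, and 2 by an older name that RefSeq keeps as a synonym (SLC22A18, now SLC67A1, and TP73-AS1, now GFOD3P). They fell into 19 domains, 9 of them with 1 gene. The cells were HCC1599, an established human triple-negative breast cancer line that the series title calls positive for MARCO-TST, and the labels name no treatment. Antibodies pulled down chromatin with H3K27ac, an acetylation found at active promoters and enhancers, or with H3K4me3, a trimethylation found at promoters, and an input without antibody was the background. Each mark was represented by 1 library, so differences between repeat libraries are unknown and no test was made.

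At an imprinted domain the copies inherited from the mother and the father differ in DNA methylation at an imprinting control region, which is often a promoter rich in CG pairs. The methylated copy is usually silent, while H3K4me3 is usually found on the unmethylated one. Several domains also carry a long noncoding RNA read in the opposite direction to its neighbours, such as KCNQ1OT1, whose transcription silences genes on the same copy. A peak in these libraries can come from one copy or from both, and the allele of origin could not be read.

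Peaks are given in hg38, counted from 1. A gene was called marked where a peak overlapped its span or the 2.5 kb on either side by at least 1 bp. The authors gave every peak a score without a stated unit. It began at 30 in both lists and piled up at 3100, the value of 33.4% of the H3K4me3 peaks and 3.50% of the H3K27ac peaks, so that peaks at 3100 are not ranked against each other. The lists held 32043 H3K4me3 and 72894 H3K27ac peaks on these chromosomes. The number of reads behind them is unknown here, so a gene without a peak is a gene at which none was called. As a check of the label, the epithelial genes EPCAM, KRT8, KRT18, KRT5 and CDH1 carried both marks. The mesenchymal gene VIM had both marks and CDH2 had H3K4me3 only. The T cell gene CD3E had no peak and the endothelial gene PECAM1 had H3K27ac only, with scores up to 85.2, but PTPRC, a leukocyte gene, had both marks, with scores up to 281 for H3K4me3 and 841 for H3K27ac.

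The starts below are shown because they cover the states found among the imprinted genes: both marks at the start of SNURF and SNRPN, at an internal start of PLAGL1 and at MKRN3; H3K4me3 without H3K27ac at an internal start of GRB10 and at NAP1L5; and neither mark at NDN and MEG3. Each is the RefSeq promoter sequence of GRCh38.p14, from 250 bases before to 50 bases after the start, 5′ to 3′ on the strand of the gene, with CG pairs in capitals. MKRN3 and NDN lie in the same domain of chromosome 15, with MAGEL2 between them.
SNURF, chr15:24954737-24955036, plus strand: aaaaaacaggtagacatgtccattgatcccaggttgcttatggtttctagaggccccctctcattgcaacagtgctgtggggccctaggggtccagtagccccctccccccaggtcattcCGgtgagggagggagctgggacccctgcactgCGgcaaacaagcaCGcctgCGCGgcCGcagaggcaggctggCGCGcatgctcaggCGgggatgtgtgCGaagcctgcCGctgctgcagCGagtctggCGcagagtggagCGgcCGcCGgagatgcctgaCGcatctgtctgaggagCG
PLAGL1, chr6:144008210-144008509, minus strand: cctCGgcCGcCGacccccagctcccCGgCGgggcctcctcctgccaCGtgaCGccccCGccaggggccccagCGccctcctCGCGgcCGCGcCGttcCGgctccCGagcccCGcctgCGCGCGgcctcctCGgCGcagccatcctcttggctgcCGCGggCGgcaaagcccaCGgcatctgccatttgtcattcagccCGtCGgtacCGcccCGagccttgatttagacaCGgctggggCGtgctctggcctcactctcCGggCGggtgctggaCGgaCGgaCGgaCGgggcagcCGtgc
GRB10, chr7:50782847-50783146, minus strand: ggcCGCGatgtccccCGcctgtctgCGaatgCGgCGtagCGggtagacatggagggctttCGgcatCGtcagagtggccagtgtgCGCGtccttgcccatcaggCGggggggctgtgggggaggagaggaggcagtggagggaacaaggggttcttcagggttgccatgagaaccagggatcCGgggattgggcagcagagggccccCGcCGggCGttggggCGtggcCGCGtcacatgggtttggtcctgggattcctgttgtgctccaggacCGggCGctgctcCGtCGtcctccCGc
NAP1L5, chr4:88697780-88698079, minus strand: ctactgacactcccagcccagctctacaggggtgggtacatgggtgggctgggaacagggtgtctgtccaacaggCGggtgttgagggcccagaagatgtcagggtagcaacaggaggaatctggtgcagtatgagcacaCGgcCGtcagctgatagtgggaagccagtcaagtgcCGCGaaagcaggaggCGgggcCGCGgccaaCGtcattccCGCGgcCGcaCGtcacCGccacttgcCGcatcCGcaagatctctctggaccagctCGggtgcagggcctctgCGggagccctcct
MKRN3, chr15:23565424-23565723, plus strand: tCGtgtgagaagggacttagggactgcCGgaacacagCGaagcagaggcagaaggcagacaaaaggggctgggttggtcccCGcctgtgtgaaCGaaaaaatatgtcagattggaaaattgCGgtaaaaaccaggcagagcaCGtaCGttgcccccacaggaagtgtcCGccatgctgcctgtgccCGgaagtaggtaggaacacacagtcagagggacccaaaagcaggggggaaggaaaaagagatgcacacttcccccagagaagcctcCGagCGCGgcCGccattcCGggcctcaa
NDN, chr15:23687256-23687555, minus strand: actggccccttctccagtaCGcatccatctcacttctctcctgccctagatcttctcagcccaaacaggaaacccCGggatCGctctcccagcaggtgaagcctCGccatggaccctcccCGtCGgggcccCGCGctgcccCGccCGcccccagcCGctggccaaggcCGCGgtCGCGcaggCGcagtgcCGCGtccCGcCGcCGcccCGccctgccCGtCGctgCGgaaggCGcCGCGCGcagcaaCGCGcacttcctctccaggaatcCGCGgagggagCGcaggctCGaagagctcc
MEG3, chr14:100825858-100826157, plus strand: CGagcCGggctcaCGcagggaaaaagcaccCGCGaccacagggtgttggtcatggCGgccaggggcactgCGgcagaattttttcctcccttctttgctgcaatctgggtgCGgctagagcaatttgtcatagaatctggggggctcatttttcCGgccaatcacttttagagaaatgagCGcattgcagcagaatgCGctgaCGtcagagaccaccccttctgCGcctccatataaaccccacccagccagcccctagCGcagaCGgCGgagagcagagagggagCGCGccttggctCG
In their 300 bases, NDN held 35 CG pairs, MKRN3 held 15 and MAGEL2, which also had neither mark, held 9. The hexamer TGCCGC, the motif known for the imprint-keeping zinc finger protein ZFP57, was searched on both strands. It occurred 2 times each at SNURF, PLAGL1 and NAP1L5, and 1 time each at NDN and MEG3, with no match in the GRB10 and MKRN3 windows.

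Most of the imprinted genes carried H3K4me3, and a smaller number carried H3K27ac. H3K4me3 was found at 32 of 39 (82.1%, exact Clopper-Pearson 95% interval 66.5 to 92.5), against 76.5% of the 19974 protein-coding genes and 41.3% of genes of any kind. H3K27ac was found at 23 of 39 (59.0%, 42.1 to 74.4), against 75.0% of protein-coding genes and 45.6% of genes of any kind. The intervals cover counting error only and treat genes as independent, which imprinted genes that share a domain or a peak are not.

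All 23 genes with H3K27ac also had H3K4me3, so 59.0% carried both marks, against 69.5% of protein-coding genes and 35.7% of genes of any kind. H3K4me3 without H3K27ac was found at 9 imprinted genes (23.1%, 11.1 to 39.3), against 7.08% of protein-coding genes and 5.50% of genes of any kind. No imprinted gene had H3K27ac only, which allows a share of up to 9.03% at the upper bound of the interval, against 5.53% of protein-coding genes and 9.84% of genes of any kind. Neither mark was found at 7 imprinted genes (17.9%), against 17.9% of protein-coding genes and 48.9% of genes of any kind. Of the imprinted genes with H3K4me3, 71.9% (53.3 to 86.3) also had H3K27ac, against 90.8% of protein-coding genes with H3K4me3. Among genes of any kind with H3K4me3 this share was 86.7%. Of the 33 protein-coding imprinted genes, 21.2% had H3K4me3 only. Of those among them with H3K4me3, 75.0% (55.1 to 89.3) also had H3K27ac. These are descriptions of 1 library per mark, and the differences were not tested. The share with H3K4me3 only depends on the threshold and the window. With scores of at least 100, H3K4me3 only was found at 11 of 39 imprinted genes, against 14.9% of protein-coding genes. With lists of equal length it was 11 of 39, against 14.8%, and with windows of 1 kb at starts or ends 8 of 39, against 12.3%.

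**Figure D1:**
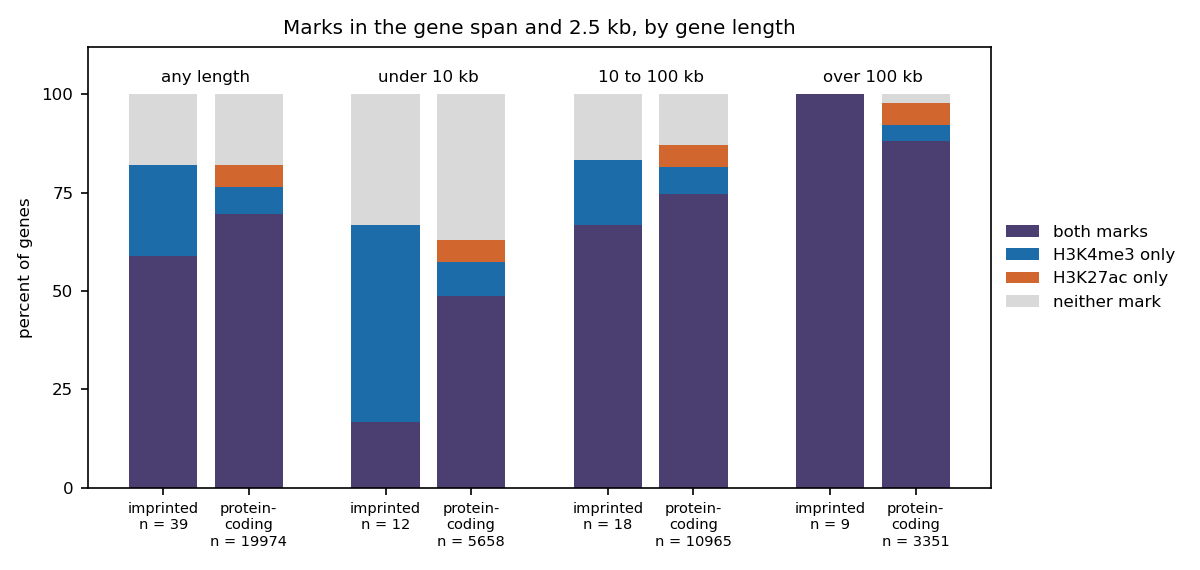
Percent of genes with each combination of marks in the gene span and 2.5 kb, for the imprinted genes and all protein-coding genes, at any length and in 3 length classes; n is the number of genes. H3K4me3 without H3K27ac made up 23.1% of the imprinted genes and 7.08% of protein-coding genes. Among genes under 10 kb it made up 6 of 12 imprinted genes and 8.87% of protein-coding genes. The 6 include NNAT, with a peak in its flank only, and the noncoding RNA H19.

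Gene length went with the state. Of the 12 imprinted genes under 10 kb, 6 had H3K4me3 only, against 8.87% of protein-coding genes of that length, and 2 had both marks (16.7%, 2.09 to 48.4), against 48.6%. The 6 include NNAT, with a peak in its flank only, and the noncoding RNA H19. Of the 18 between 10 and 100 kb, 12 had both (66.7%), against 74.6% of protein-coding genes. In that class 3 had H3K4me3 only (16.7%), against 7.01%. All 9 imprinted genes over 100 kb had both, against 88.0%. A long span collects more peaks, so its marks need not lie at its start.

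Widths and scores of the peaks lay near those of the whole lists. The 61 different H3K4me3 peaks at imprinted genes were 1632 bp wide at the median and scored 585, against 1667 bp and 590 in the whole list. For the 74 H3K27ac peaks the median was 889 bp for width and 74.2 for score, against 865 bp and 65.0 in the whole list. Of these peaks, 57.4% of H3K4me3 overlapped H3K27ac, against 71.0% of the whole list, and 58.1% of H3K27ac overlapped H3K4me3, against 34.8%. The peaks at imprinted genes were taken from gene spans and 2.5 kb, while the whole lists include peaks at any distance from a gene. Several members shared a peak at 9 of the H3K4me3 and 11 of the H3K27ac peaks. The strongest H3K4me3 peak reached 3100 at 25 imprinted genes, 20 with both marks and 5 with H3K4me3 only. Some of these genes shared a peak, and NNAT counted only through a peak in its flank. The median of the strongest H3K4me3 score was 3100 at imprinted and at protein-coding genes with the mark. Of the different H3K4me3 peaks, 34.4% at imprinted genes scored 3100 or more, against 33.9% of the whole list. The strongest H3K27ac peak scored 1000 or more at 9 imprinted genes (39.1% of those with H3K27ac), against 38.9% of protein-coding genes with H3K27ac. None of the 23 imprinted genes with H3K27ac reached 3100, against 14.7% of those protein-coding genes. The 23 are few and some share their strongest peak, and this difference was not tested.

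**Figure D2:**
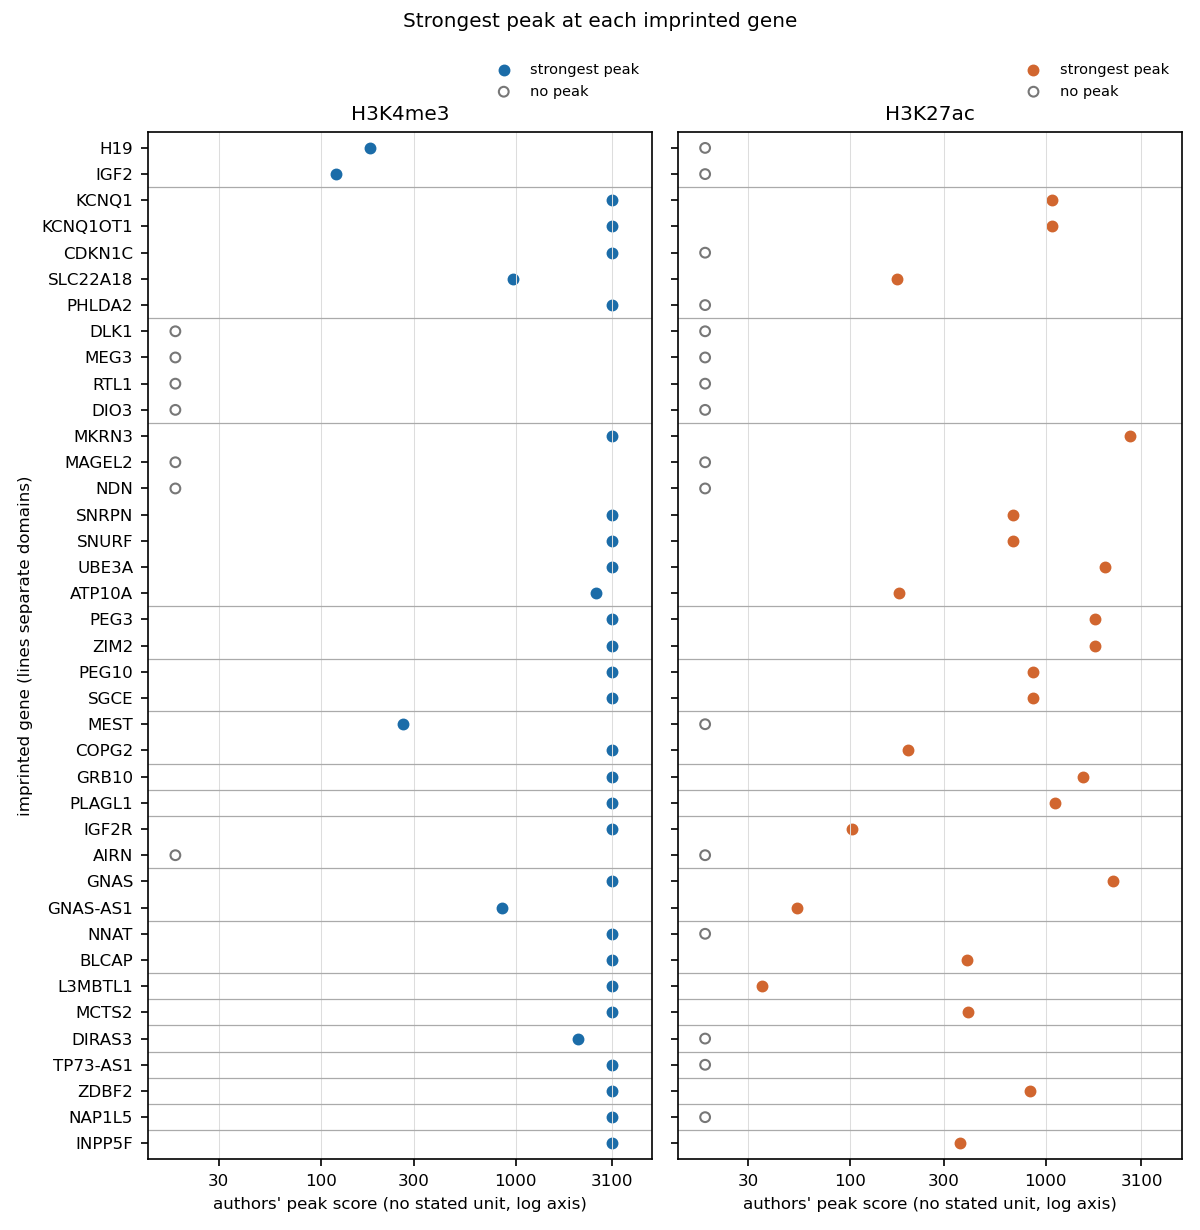
Score of the strongest peak of each mark at each of the 39 imprinted genes, grouped by domain; filled points are peaks on a log axis and open points at the left mark genes with no peak. H3K4me3 reached 3100 at 25 genes, and the median of the strongest score was also 3100 at protein-coding genes with H3K4me3. The highest H3K27ac score among the 39 genes was 2701, at MKRN3, and all 4 genes from DLK1 to DIO3 lacked both marks.

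On chromosome 11, the domain of H19 and IGF2 carried weak H3K4me3 and no H3K27ac. H19, a noncoding RNA of fetal tissues expressed from the maternal copy, spans chr11:1995176-2001266. It had 1 narrow H3K4me3 peak inside the gene, of 553 bp with a score of 180, and no peak within 1 kb of its start. IGF2, a fetal growth factor expressed from the paternal copy, had 3 H3K4me3 peaks of 612, 694 and 1035 bp with scores of 48.2, 120 and 66.2. The nearest H3K27ac peak was 45437 bp from H19 and 17022 bp from IGF2.

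The neighbouring domain of chromosome 11, from KCNQ1 to PHLDA2, held stronger H3K4me3 peaks. KCNQ1OT1, the antisense noncoding RNA of the control region inside KCNQ1, carried an H3K4me3 peak at chr11:2697037-2701432, 4396 bp wide with a score of 3100. This peak covered the higher-coordinate end of KCNQ1OT1, which is its start, and held 2 H3K27ac peaks with scores of 320 and 1077. The potassium channel gene KCNQ1, the host of this RNA, had H3K4me3 scores of 383 and 568 at its own lower-coordinate end, which is its start. No H3K27ac lay within 1 kb of that start. The other H3K27ac peaks in KCNQ1 scored at most 316, so its highest score of each mark came from the start of KCNQ1OT1.

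The 2 growth-restraining genes at the far side of this domain had strong H3K4me3 and no H3K27ac. CDKN1C, encoding the cell cycle inhibitor p57, had 1 H3K4me3 peak of 3156 bp and PHLDA2, a placental growth restrainer, 1 of 3026 bp, both with a score of 3100. The nearest H3K27ac lay 26878 bp from CDKN1C and 4167 bp from PHLDA2. SLC22A18, a transporter gene between them, had an H3K4me3 peak of 1470 bp at its annotated starts with a score of 970 and no H3K27ac there. It counted as doubly marked through a second site inside the gene, where a 370 bp H3K4me3 peak with a score of 30.4 met H3K27ac with a score of 174.

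The domain from DLK1 to DIO3 on chromosome 14 was the one domain in which no gene was marked. DLK1, a Notch-like membrane protein gene, MEG3, a maternally expressed noncoding RNA, RTL1, a gene derived from a retrotransposon, and DIO3, encoding the deiodinase that inactivates thyroid hormone, all lacked peaks of both marks. The stretch from 2.5 kb before DLK1 to 2.5 kb after DIO3, 841561 bp, contained no H3K4me3 peak at all. It contained 8 H3K27ac peaks with a median score of 39.9. The nearest H3K27ac peak, inside or outside the stretch, was 6189 bp from DIO3 and 26947 bp from MEG3. The nearest H3K4me3 was 20848 bp from DIO3, 139041 bp from DLK1 and 238257 bp from MEG3. The noncoding RNAs MEG8 and MEG9 of the same stretch also lacked both marks.

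The region of chromosome 15 lost or silenced in Prader-Willi and Angelman syndromes was split. MKRN3, a ubiquitin ligase gene known for a role in the timing of puberty, had the highest H3K27ac score of the 39 genes, 2701, in a peak of 4067 bp. Its H3K4me3 peak at chr15:23564184-23568425 was 4242 bp wide with a score of 3100. The next genes, MAGEL2 and NDN, both of the MAGE family, had neither mark. The nearest H3K4me3 was 75124 bp from MAGEL2 and 116975 bp from NDN. All 3 are expressed from the paternal copy.

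SNRPN and SNURF, which share a transcript start beside the control region of this domain, had H3K4me3 at chr15:24954256-24957558, 3303 bp wide with a score of 3100. Within it lay 2 H3K27ac peaks with scores of 94.2 and 679. SNRPN has further starts upstream, 32934 and 39335 bp from the first annotated end of the gene, and neither of these had a peak of either mark within 1 kb. An H3K4me3 peak between them and the shared start, 1723 bp wide with a score of 662, met no H3K27ac. UBE3A, the Angelman ubiquitin ligase gene, which is imprinted in neurons, had 3699 bp of H3K4me3 with a score of 3100 and an H3K27ac score of 2024 at its starts. ATP10A, a lipid flippase gene, had 2459 bp with an H3K4me3 score of 2572 and an H3K27ac score of 178 at its start.

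Both marks also lay at the starts of the paternally expressed pairs PEG3 with ZIM2 and PEG10 with SGCE. PEG3 and ZIM2 on chromosome 19, zinc finger genes that share a start, had a 7480 bp H3K4me3 peak at chr19:56836448-56843927 with a score of 3100. H3K27ac within it scored up to 1785, in a peak of 3806 bp. PEG10, a retrotransposon-derived gene, and SGCE, encoding a sarcoglycan, are read away from each other on chromosome 7. Both lay at an H3K4me3 peak at chr7:94653041-94657865, 4825 bp wide with a score of 3100. The 2 H3K27ac peaks that overlapped it scored 171 and 859.

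MEST, a hydrolase-like gene of chromosome 7, differed from its neighbour COPG2. MEST had 1 H3K4me3 peak of 885 bp with a score of 264, over its starts 5883 and 5910 bp from the first, and none within 1 kb of the first. Its nearest H3K27ac lay 44396 bp away. COPG2, a vesicle coat gene, had H3K4me3 of 2876 bp with a score of 3100 and H3K27ac with a score of 197 at its start. On chromosome 6, the receptor gene IGF2R, which removes IGF2, had 3961 bp of H3K4me3 with a score of 3100 at its start, with an H3K27ac score of 67.0. AIRN, the antisense RNA inside IGF2R that silences it in mouse, had neither mark at its annotated span. The nearest peak of H3K27ac was 6099 bp away and of H3K4me3 25696 bp away.

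Genes with several starts showed different marks from one start to the next. GNAS on chromosome 20 encodes the stimulatory G protein subunit Gs-alpha, and its upstream starts give the imprinted transcripts of NESP55 and XL-alpha-s. The first start, at 58839748, lay in an H3K4me3 peak of 1896 bp with a score of 852, without H3K27ac. The starts 12968 and 13233 bp further on lay in or beside an H3K4me3 peak of 779 bp with a score of 282, also without H3K27ac within 1 kb. Further in, away from every start of the table, H3K4me3 of 1735 bp with a score of 1527 overlapped H3K27ac of 2651 bp with a score of 1639. The last starts, 48665 and 49432 bp from the first, lay in the widest H3K4me3 peak of the 39 genes, 9040 bp with a score of 3100. They also lay in the widest H3K27ac peak of the 39, 6809 bp with a score of 2213. GNAS-AS1, the antisense RNA of the locus, shared the first 2 of these H3K4me3 peaks and had 1 H3K27ac peak of its own with a score of 53.5.

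GRB10 on chromosome 7, a growth-restraining adaptor of insulin receptor signalling, had 2 H3K4me3 peaks that scored 3100. The peak at its first starts, chr7:50790743-50794454, overlapped H3K27ac with a score of 363. The other, chr7:50781552-50784050, was 2499 bp wide, covered the start 10557 bp further on and met no H3K27ac. The strongest H3K27ac of the gene, 4002 bp with a score of 1560, lay at chr7:50681616-50685617, away from every annotated start. It was 1 of 17 H3K27ac peaks in GRB10, the most at any of the 39 genes.

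PLAGL1 on chromosome 6, a zinc finger growth regulator, had both marks at its first start, with scores of 3100 for H3K4me3 and 207 for H3K27ac. Its start 56340 bp further on, which is the imprinted one, had H3K4me3 of 3663 bp with a score of 2211 and H3K27ac of 2031 bp with a score of 456. The noncoding RNA HYMAI, read from the same place, carried the same H3K4me3 peak. The strongest H3K27ac of PLAGL1, 2676 bp with a score of 1122, lay beside its last annotated start, 103187 bp from the first, with H3K4me3 at 178.

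**Figure D3:**
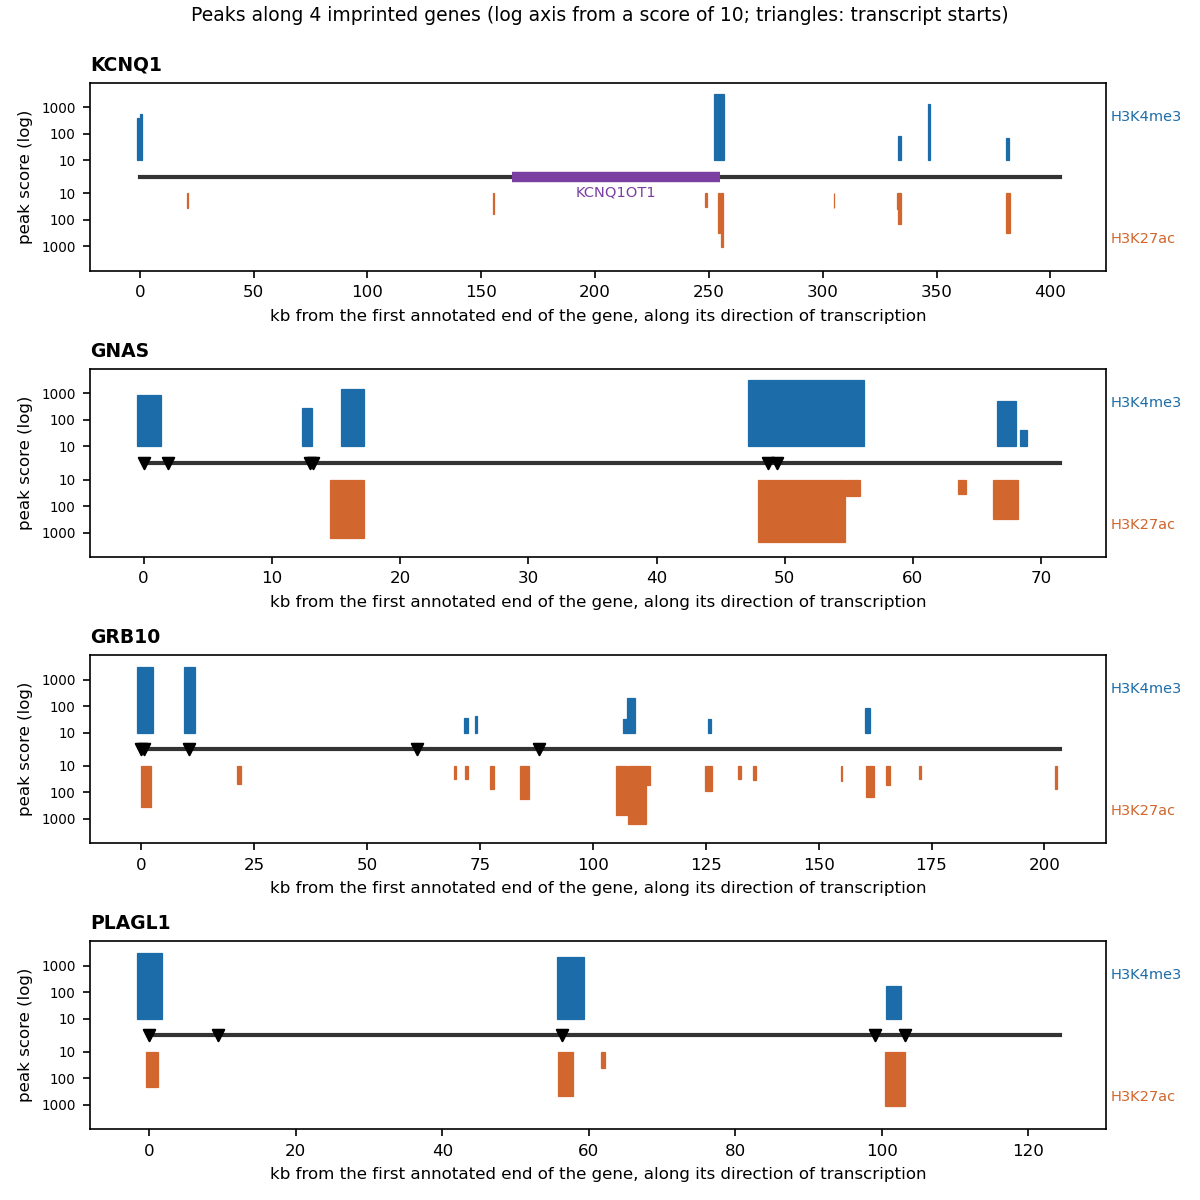
Peaks along KCNQ1, GNAS, GRB10 and PLAGL1, with distance in kb from the first annotated end in the direction of transcription, H3K4me3 above and H3K27ac below the gene line, and bar height giving the score on a log axis that starts at 10. Triangles are transcript starts of the promoter table, which are not drawn for KCNQ1; the second GRB10 peak with a score of 3100 and the first GNAS starts have H3K4me3 without H3K27ac.

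The other genes of chromosome 20 differed in H3K27ac. NNAT, a neuronal membrane protein gene inside BLCAP, had no peak of its own. It counted as marked only because the H3K4me3 peak of BLCAP came within 1588 bp of it, just inside the 2.5 kb limit, while the H3K27ac of BLCAP lay just outside, at 2820 bp. BLCAP had 3951 bp of H3K4me3 with a score of 3100 and H3K27ac with a score of 395 at its first starts. MCTS2, an intronless gene inside HM13, had 4530 bp of H3K4me3 with a score of 3100 and H3K27ac up to 398. L3MBTL1, a chromatin reader gene, had H3K4me3 scores of 3100 and 2002 at its 2 starts, each with weak H3K27ac, with scores of 35.1 and 32.7.

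Of the remaining single genes, 3 had strong H3K4me3 without H3K27ac. NAP1L5, an intronless gene inside HERC3, had 1 peak of 2308 bp with a score of 3100, and DIRAS3, a Ras-like tumour suppressor gene, 1 of 2288 bp with a score of 2088. TP73-AS1, an RNA beside the p53 relative TP73, had 1 of 3820 bp with a score of 3100. The nearest H3K27ac was 60751 bp from NAP1L5, 48304 bp from DIRAS3 and 18635 bp from TP73-AS1. ZDBF2, a zinc finger gene, had 3309 bp of H3K4me3 with a score of 3100 and an H3K27ac score of 837. INPP5F, a lipid phosphatase gene, had 2834 bp of H3K4me3 with a score of 3100 and H3K27ac up to 364 around its first start. Its internal start, 93219 bp from the first annotated end, had neither mark.

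Among genes with H3K4me3 only, the strongest H3K4me3 peak had a median width of 2308 bp at the 9 imprinted genes, against 1663 bp at protein-coding genes in that state. Among genes with both marks the medians were 3712 bp at the 23 imprinted genes, against 3563 bp at protein-coding genes.

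Annotated starts could be compared directly for 26 of the 39 imprinted genes, with 55 different starts in the promoter table. Both marks lay within 1 kb of 24 (43.6%), against 56.5% of the 21983 different starts of protein-coding genes. H3K4me3 without H3K27ac lay at 13 (23.6%), against 12.3%, and neither mark at 18 (32.7%), against 28.9%. H3K27ac alone lay at none, against 2.28%. Starts with both marks had a median of 34.5 CG pairs in 300 bases, those with H3K4me3 only 21, and those with neither 8. Over protein-coding genes these medians were 27, 25 and 5. Starts of one gene that lie close together share their peaks.

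In both groups, H3K4me3 was found at a larger share of the starts rich in CG pairs. Of the 28 imprinted starts with 20 or more CG pairs, 25 had H3K4me3 (89.3%, 71.8 to 97.7), against 93.8% of such starts of protein-coding genes. Of the 14 with fewer than 10, 3 had it (21.4%), against 23.1%. In the class of 20 or more, both marks were found at 60.7% of imprinted starts and 78.8% of protein-coding starts. The 3 imprinted starts with 20 or more CG pairs and neither mark were those of NDN with 35, DIO3 with 28 and the second start of MEST with 22.

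**Figure D4:**
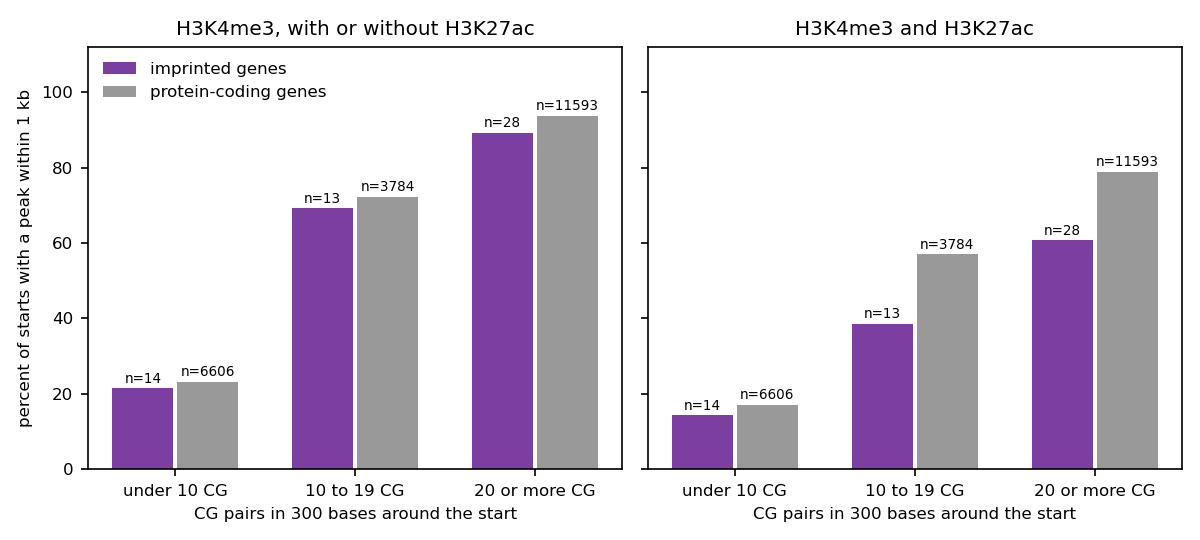
Percent of annotated starts with H3K4me3 within 1 kb (left panel) and with both marks (right panel), by the number of CG pairs in the 300 bases around the start; n is the number of starts. H3K4me3 was at 89.3% of imprinted starts with 20 or more CG pairs and 93.8% of protein-coding ones, and both marks were at 60.7% and 78.8%.

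TGCCGC on either strand was present at 22 of the 55 imprinted starts (40.0%), against 16.7% of 34789 different starts of genes of every kind. Among starts with 20 or more CG pairs it was present at 14 of 28 imprinted starts, against 30.5% of all such starts. Among those with 10 to 19 it was present at 7 of 13 (53.8%), against 17.0%. These 7 include all the MEG3 starts. GNGGCAG, part of the motif known for the insulator protein CTCF, was present at 52.7% of imprinted starts and 37.6% of all starts. This motif was not compared within classes of CG pairs, whose median was 21 at imprinted starts and 14 at all starts. Windows of one gene can overlap and count the same match again, as at MEG3, whose further starts lay 10 and 24 bp from the first. The matches are therefore not independent. A match is a run of letters and not a binding site.

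Of 43 neighbours and further imprinted genes, 31 had both marks, 4 had H3K4me3 only, 1 had H3K27ac only and 7 had neither, beside the 69.5% of all protein-coding genes with both. KLF14 on chromosome 7, an imprinted transcription factor gene, had H3K4me3 only, with a peak of 2355 bp and a score of 2760. INS, the insulin gene beside IGF2, had neither mark. Of 20 genes known to set, keep or read imprints, 16 had both marks, beside the same 69.5%. The maintenance methyltransferase gene DNMT1 had a 5137 bp H3K4me3 peak and an H3K27ac score of 1023, its partner UHRF1 had 4246 bp and 2226, and CTCF had 5264 bp and 3100. TRIM28, the corepressor of ZFP57, had 4000 bp and 619. ZFP57 itself had H3K27ac only, in 3 peaks with scores up to 391. DNMT3L and DPPA3, which act in germ cells and early embryos, had neither mark.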

How the data were processed

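H3K27ac and H3K4me3 were each profiled in 1 library of HCC1599. Formaldehyde fixed the chromatin, and sonication with micrococcal nuclease broke it up, per the labels' protocols. Nuclease cutting between nucleosomes can affect where peaks end and split, which was not tested here. The submitters' processing notes name Bowtie2, MACS 1.4 and hg38. Parameters are not given in the sources used here. The authors deposited 1 peak list per mark with a score for each peak, whose unit is not stated.

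Genes and starts came from RefSeq tables of GRCh38.p14. Where a member has no row in the promoter table, its start is named from general knowledge of its strand. Marks were called by overlap with the gene span and 2.5 kb. Overlaps were computed with Python 3.11.15, numpy 2.4.6, pandas 2.3.3 and scipy 1.17.1. They were checked against bedtools 2.31.1 for all 59098 genes and differed at 0. Counting was also tested on simulated data.

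The members, domains and lists were chosen with earlier results of these data known. All 39 members are accounted for, and the genes named from the other lists were chosen after their values were seen. The input, read depth and copy number were not analysed here.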

Additional observations from a re-analysis of the deposited data

How the results depend on the processing

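Scores of at least 100 or 50, equal list lengths, flanks of 0, 1 and 5 kb, windows of 1 kb at starts or ends, and 50% of a peak inside the window were tried. Under these, 31 or 32 imprinted genes had H3K4me3, except 28 with windows at starts or ends. H3K27ac was found at 20 to 25, and both marks at the same 20 to 25. Neither mark was found at 7 or 8, but at 11 with windows at starts or ends, since H19, IGF2, NNAT and GNAS-AS1 were marked elsewhere or in their flanks. Those windows also left KCNQ1 and SLC22A18 with H3K4me3 only. IGF2, KCNQ1, NNAT and GNAS-AS1 have no row in the promoter table, so both ends of each gene were used and internal starts were not tested. The share of protein-coding genes with both marks was 59.3% with scores of at least 100, 64.8% with at least 50, 61.7% with equal list lengths, 66.5% without a flank, 68.2% with 1 kb, 71.4% with 5 kb, 57.7% with windows at starts or ends, and 68.4% with 50% of the peak inside. The change follows from fewer peaks or other windows. H3K4me3 without H3K27ac was found at 7 to 11 imprinted genes. L3MBTL1 lost its H3K27ac at 50 and GNAS-AS1 at 100. PHLDA2 and NNAT gained H3K27ac with a 5 kb flank. Of the 74 H3K27ac peaks, 43 overlapped H3K4me3 by 1 bp and 38 by at least 50% of their length. H3K4me3 lay at 37 of 55 starts, and at 33 within the 300 bases themselves, an alternative chosen after seeing the data. No paired analysis was possible because each mark has 1 library. Without read depth, a weak site cannot be told from an unmarked one.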
